A study of Homo sapiens with 24 samples.

Results

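The copying of the genome was followed here through 50 genes of DNA replication and nucleotide synthesis: those that license replication origins, activate the helicase, synthesise and join DNA, supply deoxynucleotides, govern entry into S phase and rebuild chromatin behind the fork. The genes were taken as a named list, and each is read by its brightest probe set on average over all arrays. All 50 passed the filter on low values and are described among 10971 genes tested. RNA from 24 samples of 2 human leukemia lines had been hybridised to Affymetrix arrays, 1 array a sample, with 3 biological replicates in each of 8 groups. MV4-11, from a biphenotypic B myelomonocytic leukemia, carries an MLL-AF4 fusion, grew in IMDM medium with 10% FBS and was sampled on days 2, 4 and 6. MOLM-13, from an acute myeloid leukemia, carries an MLL-AF9 fusion, grew in RPMI medium and was sampled on day 6. On each of those days cells exposed to 3 uM EPZ004777, a small-molecule inhibitor of the histone H3 methyltransferase DOT1L, were set against cells in 0.1% DMSO, the vehicle. No label says how the replicate cultures were made or whether the days came from 1 run of cultures, so the p-values measure only the spread between these samples, which may be technical.

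Replication is prepared before S phase, when the origin recognition complex, CDC6 and CDT1 load the ring of MCM2 to MCM7 onto DNA. Kinases then recruit CDC45 and the GINS complex, which turn the ring into an active helicase, and polymerases copy both strands behind a sliding clamp while ribonucleotide reductase, thymidylate synthase and thymidine kinase supply the building blocks. Many of these genes are transcribed together at the entry to S phase by E2F factors, and dividing cells, leukemia cells among them, express the set; MLL fusion proteins recruit DOT1L to their target genes.

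Levels are log2 of the deposited intensity, so a difference of -1 is a 2-fold loss on the array's scale, and the brightness of different probe sets is not compared. Changes are treated minus vehicle within a line and day, given ± the standard error from 1 limma model over the 24 arrays with 3 arrays a group. A gene is said to rise or fall where the two-sided limma p, adjusted by Benjamini-Hochberg over all genes tested, is under 0.05. The arrays read bulk RNA, in which fewer replicating cells and less of these RNAs per cell cannot be told apart.

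Arrays of a group correlated at 0.989 to 0.998 over genes, and no pair of arrays was identical. Of the myeloid markers, SPI1, LYZ, CEBPA and PTPRC were well above the lowest value of the arrays, 2.19, in both lines. MPO lay at 5.13 to 7.41 in MV4-11 and at 11.09 to 13.63 in MOLM-13. ANPEP, also a myeloid marker, ranged from near that lowest value up to 5.07 in MV4-11 and up to 9.26 in MOLM-13. The T cell markers CD3E and CD2 and the erythroid marker ALAS2 were at the lowest value in every array, but CD3D read 3.90 to 8.31 in MOLM-13. The stroma marker COL1A1 read 6.73 to 7.92 in MV4-11 and 6.87 to 7.44 in MOLM-13. The stroma markers COL1A2 and COL3A1 did not exceed 2.79 in either line. The control probe sets at the 3' end of ACTB and GAPDH exceeded those at the 5' end by 0.53 to 0.86 in MV4-11, apart from treated replicate 3 of day 6, which stood apart at 1.91. On days 2 and 4 it was lower in treated than in vehicle arrays, 0.53 to 0.57 against 0.64 to 0.68 and 0.59 to 0.67 against 0.70 to 0.82, and on day 6 higher, at 0.83, 0.86 and 1.91 against 0.57, 0.57 and 0.58, without overlap on any day. In MOLM-13 that difference, which grows as RNA is shortened or incompletely copied from its 3' end, was 0.95 to 1.15 in vehicle and 2.10 to 2.84 in treated arrays, so it moved with treatment in both lines.

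Most of the replication genes fell in treated MV4-11 on days 4 and 6 and in MOLM-13 on day 6, and 4 members rose in MOLM-13. On day 2 none of the 50 members fell or rose, while 3.68% of all genes tested fell and 8.82% rose. By limma 4 members, CDC6, FEN1, LIG1 and TIPIN, had an unadjusted p under 0.05, against 2650 of all 10971 genes, a larger share. The median change of the members was -0.03, within a range of -0.24 to 0.15. On day 4, 33 members fell and none rose, against 21.0% of all genes falling and 25.2% rising, and the median member changed by -0.35 (all genes 0.01). On day 6, 46 members fell and none rose, against 28.4% and 33.6% of all genes, with a median of -0.72 (all genes 0.04). Changes below -1 were seen in 15 members and in 426 of all 10971 genes. The 33 that fell on day 4 were all among the 46 of day 6. In MOLM-13 on day 6, 34 members fell and 4 rose, against 36.5% and 29.3% of all genes, with a median of -0.45 (all genes -0.03).

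**Figure D1:**
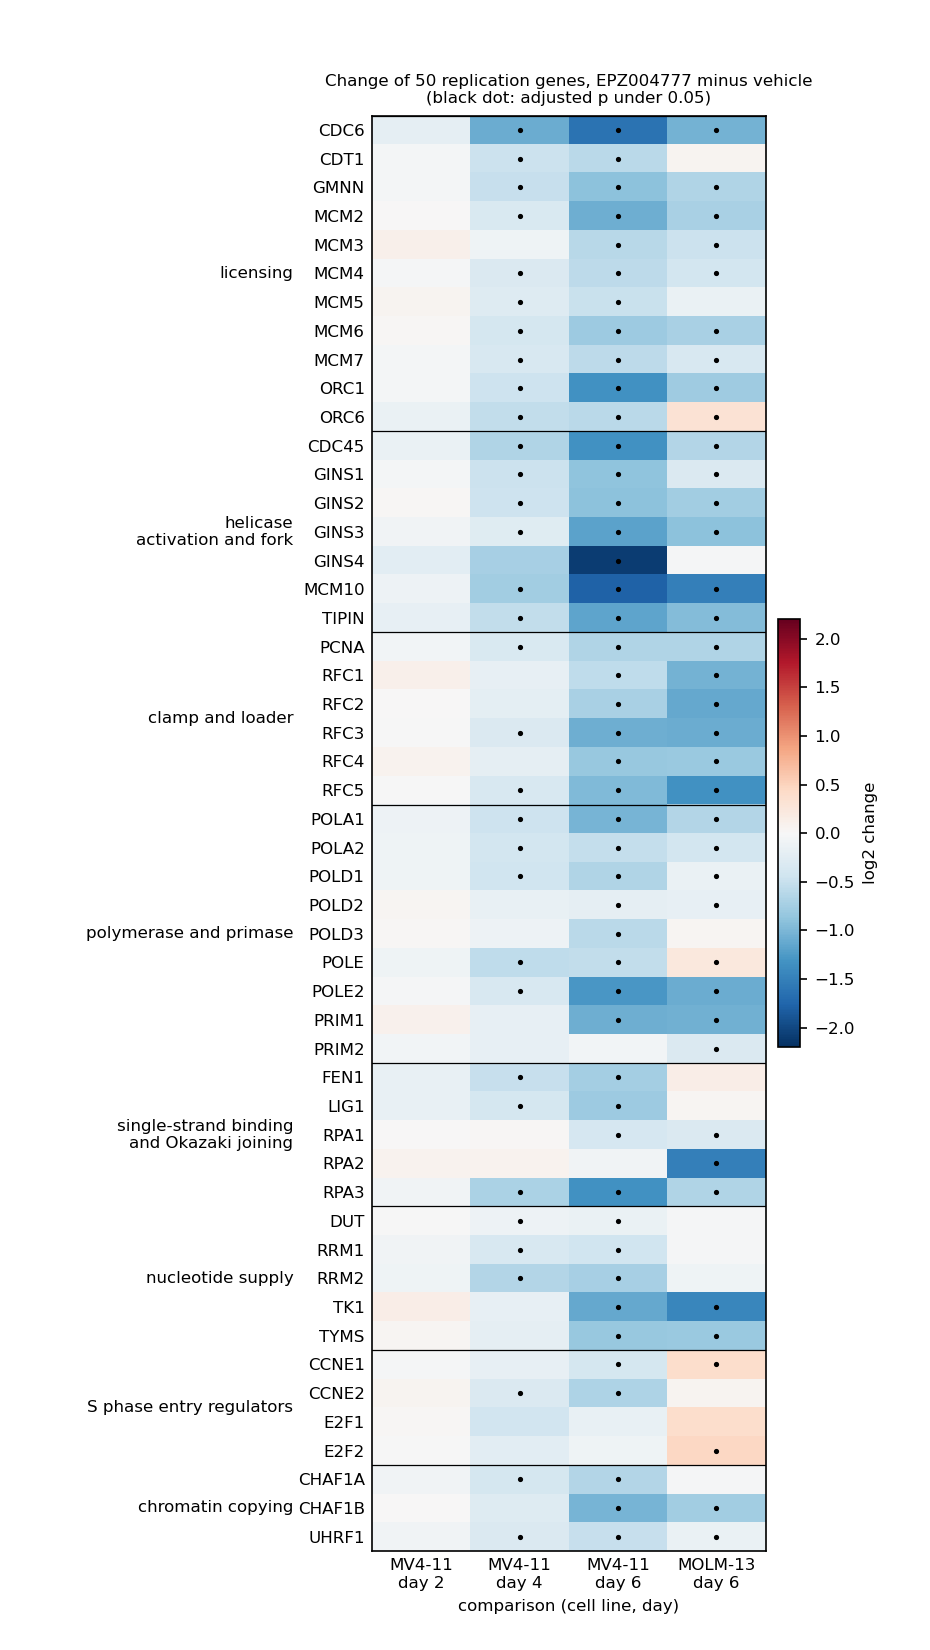
Colour gives the log2 change, EPZ004777 minus vehicle, of each of the 50 members (vertical axis, grouped by role) in the 4 comparisons (horizontal axis); a black dot marks an adjusted p under 0.05. The day 2 column has no dot, the day 6 column of MV4-11 has 46 and that of MOLM-13 has 38, of which 4 are on rises.

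Each array showed the course on its own. As the median over members of the difference from the MV4-11 vehicle mean of day 2, the treated arrays stood at -0.03, -0.03 and -0.03 on day 2, at -0.62, -0.65 and -0.59 on day 4, and at -0.73, -0.83 and -0.79 on day 6. The vehicle arrays of day 6 stood at -0.06, -0.05 and -0.03, close to their start, but those of day 4 stood at -0.25, -0.23 and -0.30. Treated replicate 3 of day 6, the array with the wide 3' to 5' difference, lay between its fellows on this measure, and without it 47 members fell with a median of -0.72. All 3 treated arrays lay below all 3 vehicle arrays for 42 members on day 4 and for 46 on day 6 in MV4-11, against 27.4% and 29.6% of all genes, and for 34 in MOLM-13, against 37.4%. On day 2 they did for 14 members, against 15.4%. All treated arrays lay above all vehicle arrays for 4 members on day 2, for none on days 4 and 6 and for 4 in MOLM-13, against 23.5%, 31.7%, 35.2% and 30.9% of all genes.

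**Figure D2:**
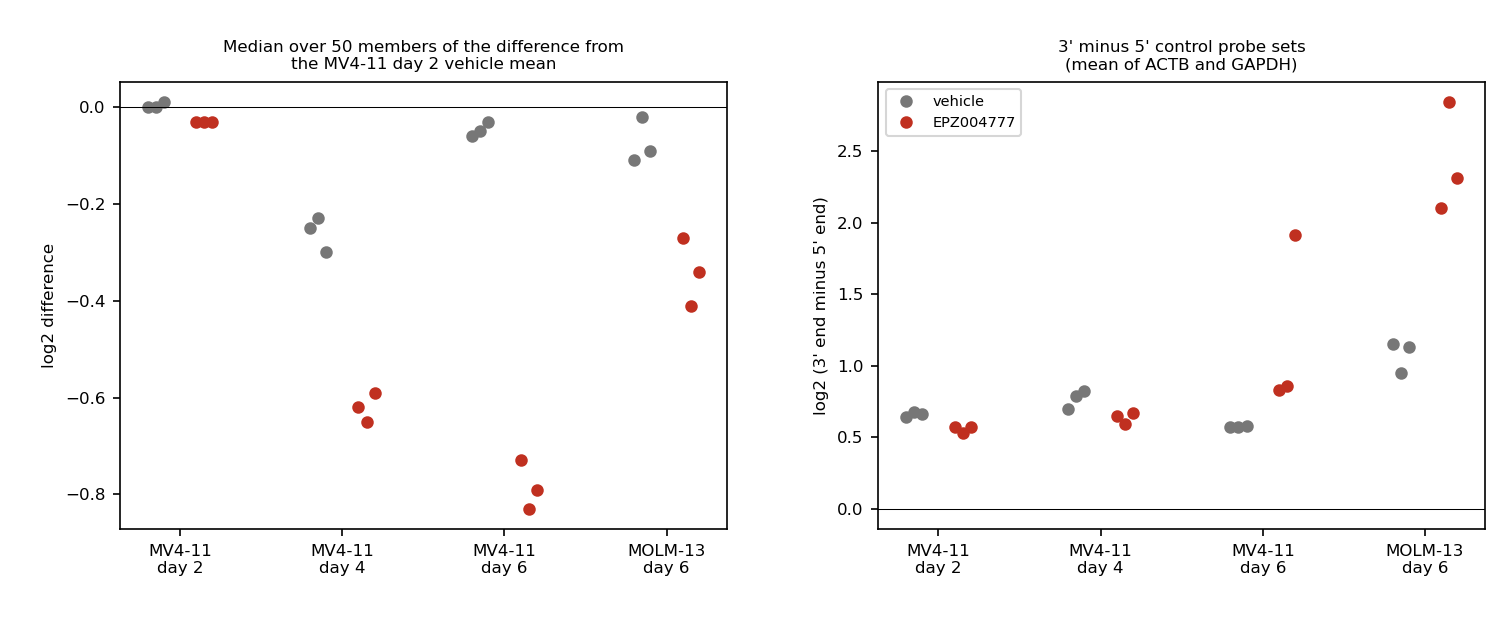
The left panel plots, for every array, the median over 50 members of the log2 difference from the MV4-11 vehicle mean of day 2; the right panel plots the log2 difference between 3' and 5' control probe sets. Treated MV4-11 arrays descend to between -0.73 and -0.83 on day 6, and the treated MOLM-13 arrays carry the widest 3' to 5' differences, up to 2.84.

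Licensing genes fell on day 4 in 10 of 11 cases and on day 6 in 11 of 11, with a median of -0.61 on day 6. CDC6, the loader that brings MCM rings to origins (GRCh38.p14 chr17:40287879-40304657), was the member with the largest change on day 4. CDC6 read 10.58, 10.60 and 10.52 in vehicle and 10.34, 10.39 and 10.38 treated on day 2, and 10.50, 10.54 and 10.48 against 9.38, 9.37 and 9.46 on day 4. CDC6 on day 6 read 10.58, 10.45 and 10.50 in vehicle and 9.03, 8.90 and 8.72 treated MV4-11, and 10.41, 10.50 and 10.30 against 9.55, 9.24 and 9.32 in MOLM-13. Treated levels were below vehicle at every time without overlap, by little on day 2 and by 3.09-fold on day 6. The change was -0.20 ± 0.08 (adjusted p = 0.116) on day 2, -1.10 ± 0.08 (adjusted p = 9.02e-10) on day 4, -1.63 ± 0.08 (adjusted p = 1.59e-12) on day 6 and -1.04 ± 0.08 (adjusted p = 1.11e-09) in MOLM-13. The day 2 value passed the threshold in a fit of only the day 2 arrays (adjusted p = 0.0199) and with the 3' to 5' difference as a covariate (adjusted p = 0.0102). ORC1, the largest subunit of the origin recognition complex, followed later. ORC1 read 9.0, 9.11 and 9.22 in vehicle and 9.10, 9.03 and 9.09 treated on day 2, and 8.73, 8.83 and 8.57 against 8.25, 8.15 and 8.36 on day 4. ORC1 on day 6 read 9.0, 9.17 and 9.10 in vehicle and 7.94, 7.80 and 7.55 treated MV4-11, and 8.98, 9.10 and 9.10 against 8.28, 8.18 and 8.37 in MOLM-13. The day 2 arrays overlapped, and the later groups did not. ORC1 changed by -0.46 ± 0.09 (adjusted p = 0.000366) on day 4, -1.33 ± 0.09 (adjusted p = 2.74e-10) on day 6 and -0.78 ± 0.09 (adjusted p = 3.61e-07) in MOLM-13.

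The rings themselves fell too. On day 6 the 6 subunits MCM2 to MCM7 fell by 0.49 (MCM5) to 1.08 (MCM2) on the log2 scale, and in MOLM-13 by 0.36 (MCM7) to 0.72 (MCM6) except MCM5, at -0.15 ± 0.07 (adjusted p = 0.0676). The dimmer probe set of MCM5 did fall in MOLM-13, at -0.85 (adjusted p = 1.37e-08 by limma, adjusted over all probe sets). MCM3 alone among the licensing genes did not pass the test on day 4, at -0.09 ± 0.07 (adjusted p = 0.35). CDT1, which loads the ring with CDC6, changed by -0.60 ± 0.10 (adjusted p = 2.37e-05) in MV4-11 and 0.06 ± 0.10 (adjusted p = 0.613) in MOLM-13, and its inhibitor geminin, GMNN, by -0.90 ± 0.06 (adjusted p = 4.23e-10) and -0.67 ± 0.06 (adjusted p = 2.5e-08). ORC6, the smallest origin recognition subunit, was the licensing gene that rose in MOLM-13. ORC6 read 10.36, 10.32 and 10.41 in vehicle and 10.26, 10.16 and 10.21 treated on day 2, and 10.15, 10.48 and 10.33 against 9.81, 9.72 and 9.81 on day 4. ORC6 on day 6 read 10.16, 10.24 and 10.18 in vehicle and 9.63, 9.58 and 9.61 treated MV4-11, and 10.95, 10.74 and 10.82 against 10.89, 11.44 and 11.12 in MOLM-13. The treated MOLM-13 arrays overlapped the vehicle arrays, with replicate 2 at the top. ORC6 changed by -0.59 ± 0.10 (adjusted p = 4.43e-05) in MV4-11 and 0.31 ± 0.10 (adjusted p = 0.011) in MOLM-13, where the adjusted p became 0.105 without treated replicate 2, 0.0515 without vehicle replicate 2 and 0.12 in a fit of the MOLM-13 arrays only.

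Of the genes that activate and hold the helicase, 6 of 7 fell on day 4, 7 of 7 on day 6 with a median of -1.17, and 6 of 7 in MOLM-13. MCM10 helps the assembled helicase start to unwind DNA (GRCh38.p14 chr10:13161558-13211110). MCM10 read 11.13, 11.10 and 11.11 in vehicle and 10.99, 11.06 and 10.98 treated on day 2, and 10.73, 10.83 and 10.59 against 9.97, 9.97 and 9.93 on day 4. MCM10 on day 6 read 10.98, 11.08 and 11.15 in vehicle and 9.36, 9.42 and 9.10 treated MV4-11, and 10.92, 10.99 and 10.78 against 9.61, 9.04 and 9.54 in MOLM-13. Every treated array was below every vehicle array of its day and line, by little on day 2. The change was -0.76 ± 0.11 (adjusted p = 1.37e-05) on day 4, -1.78 ± 0.11 (adjusted p = 7.93e-11) on day 6, a 3.43-fold loss, and -1.50 ± 0.11 (adjusted p = 8.87e-10) in MOLM-13. Its dimmer probe sets changed by -0.68 and -0.71 on day 4, -1.13 and -0.96 on day 6 and -0.53 and -0.43 in MOLM-13. All of these passed by limma, with p adjusted over all probe sets. CDC45, the helicase cofactor, changed by -1.34 ± 0.08 (adjusted p = 7.55e-11) and by -0.65 ± 0.08 (adjusted p = 1.26e-06) in MOLM-13, and TIPIN, a fork protection protein, by -1.16 ± 0.09 (adjusted p = 7.2e-10) and -0.95 ± 0.09 (adjusted p = 1.22e-08). The 4 GINS subunits clasp CDC45 to the MCM ring; GINS1, GINS2 and GINS3 changed by -0.88 ± 0.05, -0.90 ± 0.07 and -1.17 ± 0.09 on day 6 and by -0.31 ± 0.05, -0.77 ± 0.07 and -0.90 ± 0.09 in MOLM-13. Of these, the day 4 fall of GINS3 (-0.27 ± 0.09 (adjusted p = 0.0207)) missed the threshold when treated replicate 2 or 3 or vehicle replicate 2 was left out, with adjusted p of 0.0783, 0.0604 and 0.0851.

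The size of the change of GINS4, the remaining GINS subunit, rested on 1 array. GINS4 read 10.24, 10.45 and 10.36 in vehicle and 10.09, 10.12 and 10.13 treated on day 2, and 10.06, 9.97 and 10.08 against 9.40, 9.30 and 9.24 on day 4. GINS4 on day 6 read 10.00, 10.15 and 10.12 in vehicle and 9.24, 9.40 and 5.37 treated MV4-11, and 11.21, 11.35 and 11.33 against 11.25, 11.24 and 11.35 in MOLM-13. Treated replicate 3 of day 6 read far below its fellows at 5.37, and the other treated arrays were below vehicle on all 3 days. GINS4 changed by -2.08 ± 0.61 (adjusted p = 0.00577) on day 6 and by -0.77 without that array (adjusted p = 5.16e-08). With the array kept, the adjusted p was 0.171 in a fit of the day 6 MV4-11 arrays only, and the change was -0.46 with the 3' to 5' difference as a covariate (adjusted p = 0.386). The other probe sets of GINS4 changed by -1.17 (adjusted p = 4.32e-05) and -1.38 (adjusted p = 2.11e-08), with p adjusted over all probe sets. The day 4 change was -0.73 ± 0.61 (adjusted p = 0.354) in the fit that holds that array, and -0.73 with an adjusted p of 0.000407 in a fit of the day 4 arrays only. In MOLM-13 GINS4 changed by -0.02 ± 0.61 (adjusted p = 0.99), with overlapping arrays, in the same fit that holds the low array. Its other probe sets changed there by 0.29 (adjusted p = 0.21) and -0.80 (adjusted p = 1.72e-05), with p adjusted over all probe sets.

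**Figure D3:**
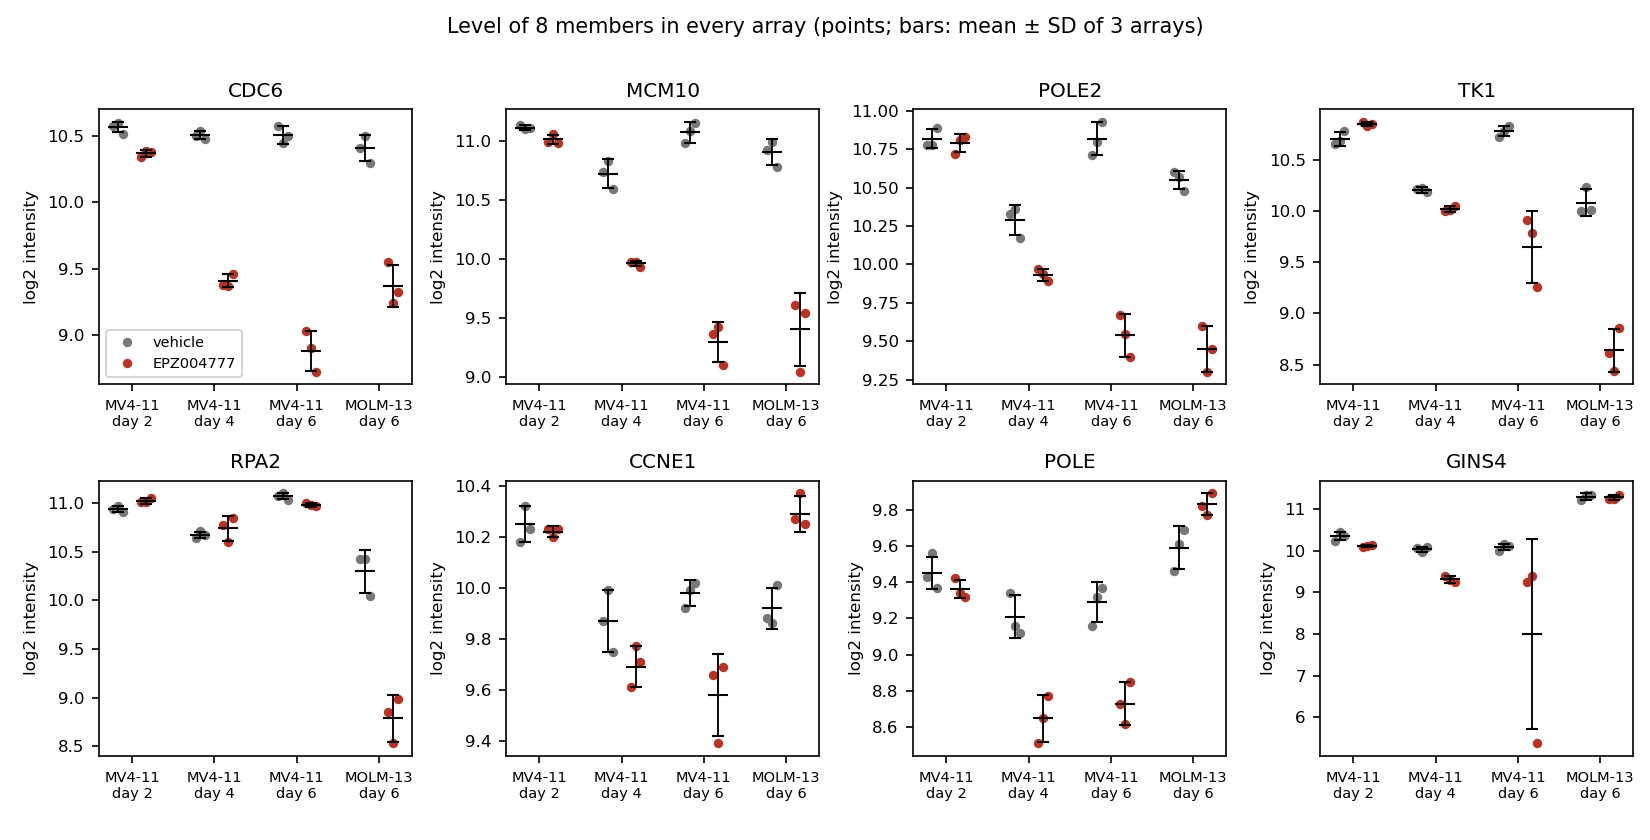
Points give the log2 intensity of 8 members in every array (vertical axis) by line and day (horizontal axis), vehicle in grey and EPZ004777 in red; bars are mean ± SD of 3 arrays. CDC6, MCM10, POLE2 and TK1 separate by day 6 in both lines, RPA2 separates by over 1 log2 unit in MOLM-13 alone among the groups drawn, CCNE1 and POLE lie above vehicle in MOLM-13, and 1 GINS4 array lies at 5.37.

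The sliding clamp PCNA and its loader, RFC1 to RFC5, fell in 3 of 6 cases on day 4 and in 6 of 6 on day 6 in both lines, with medians of -0.77 in MV4-11 and -1.07 in MOLM-13. RFC3 read 11.31, 11.21 and 11.36 in vehicle and 11.17, 11.38 and 11.30 treated on day 2, and 10.73, 11.15 and 11.02 against 10.82, 10.59 and 10.53 on day 4. RFC3 on day 6 read 11.32, 11.52 and 11.38 in vehicle and 10.35, 10.43 and 10.23 treated MV4-11, and 11.91, 11.99 and 11.82 against 11.07, 10.45 and 10.90 in MOLM-13. RFC3 overlapped on days 2 and 4 and was low in treated cells of both lines on day 6. RFC5 read 10.87, 10.72 and 10.80 in vehicle and 10.79, 10.80 and 10.77 treated on day 2, and 10.47, 10.47 and 10.32 against 10.11, 10.01 and 10.08 on day 4. RFC5 on day 6 read 10.86, 10.91 and 10.78 in vehicle and 9.98, 9.92 and 9.74 treated MV4-11, and 10.32, 10.44 and 10.25 against 9.08, 8.80 and 9.12 in MOLM-13. RFC5 separated without overlap from day 4 on and in MOLM-13. RFC3 changed by -0.32 ± 0.13 (adjusted p = 0.0458) on day 4, -1.07 ± 0.13 (adjusted p = 5.84e-07) on day 6 and -1.10 ± 0.13 (adjusted p = 3.67e-07) in MOLM-13. Its day 4 value lost the call without treated replicate 2 or 3 or vehicle replicate 2 or 3, with adjusted p of 0.12 to 0.201. It was also lost with a replicate block (adjusted p = 0.0612), with quantile normalization applied again (0.0584), and with no filter or in a fit of only the day 4 arrays (0.0969 for both). The same held for the mean of probe sets, at -0.16 (adjusted p = 0.496). That mean takes in a probe set near the lowest value of the arrays, averaging 2.26 in vehicle and 2.25 treated on day 4. RFC5 changed by -0.35 ± 0.08 (adjusted p = 0.00122), -0.97 ± 0.08 (adjusted p = 4.01e-09) and -1.33 ± 0.08 (adjusted p = 4.92e-11). PCNA, the ring that tethers polymerases, changed by -0.66 ± 0.09 (adjusted p = 5.39e-06) in MV4-11 and -0.66 ± 0.09 (adjusted p = 4.64e-06) in MOLM-13, and RFC4 by -0.83 ± 0.10 and -0.82 ± 0.10.

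Among polymerase and primase genes, 5 of 9 fell on day 4, 8 of 9 on day 6, and 7 of 9 in MOLM-13, where 1 rose. POLE2, a subunit of the leading-strand polymerase epsilon (GRCh38.p14 chr14:49643555-49688214), and PRIM1, the primase subunit that makes the starting RNA, had the largest day 6 changes. POLE2 read 10.78, 10.78 and 10.89 in vehicle and 10.72, 10.81 and 10.83 treated on day 2, and 10.33, 10.36 and 10.17 against 9.97, 9.94 and 9.89 on day 4. POLE2 on day 6 read 10.71, 10.80 and 10.93 in vehicle and 9.67, 9.55 and 9.40 treated MV4-11, and 10.60, 10.57 and 10.48 against 9.60, 9.30 and 9.45 in MOLM-13. Treated POLE2 arrays were below vehicle from day 4 on and in MOLM-13. PRIM1 read 10.76, 10.78 and 10.82 in vehicle and 10.79, 11.00 and 10.88 treated on day 2, and 10.45, 10.50 and 10.50 against 10.42, 10.16 and 10.33 on day 4. PRIM1 on day 6 read 11.09, 11.02 and 10.93 in vehicle and 10.07, 10.03 and 9.70 treated MV4-11, and 10.02, 10.30 and 9.98 against 9.44, 8.78 and 8.94 in MOLM-13. PRIM1 separated narrowly on day 4 and widely on day 6 in both lines. The vehicle arrays of day 4 were below those of the other days for both genes. POLE2 changed by -0.35 ± 0.08 (adjusted p = 0.00124) on day 4, -1.28 ± 0.08 (adjusted p = 8.78e-11) on day 6 and -1.10 ± 0.08 (adjusted p = 8.02e-10) in MOLM-13. PRIM1 changed by -0.18 ± 0.13 (adjusted p = 0.272), -1.08 ± 0.13 (adjusted p = 6.59e-07) and -1.05 ± 0.13 (adjusted p = 8.41e-07), and the last became -0.43 (adjusted p = 0.0607) with the 3' to 5' difference as a covariate. Its partner PRIM2, which joins primase to polymerase alpha, did not pass the test in MV4-11 on day 6, at -0.06 ± 0.11 (adjusted p = 0.647).

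POLE, the catalytic subunit of polymerase epsilon, moved in opposite directions in the lines. POLE read 9.43, 9.56 and 9.37 in vehicle and 9.42, 9.34 and 9.32 treated on day 2, and 9.34, 9.16 and 9.12 against 8.51, 8.65 and 8.77 on day 4. POLE on day 6 read 9.16, 9.32 and 9.37 in vehicle and 8.73, 8.62 and 8.85 treated MV4-11, and 9.46, 9.61 and 9.69 against 9.82, 9.77 and 9.89 in MOLM-13. Treated arrays were below vehicle in MV4-11 on days 4 and 6 and above vehicle in MOLM-13, with no overlap. POLE changed by -0.56 ± 0.08 (adjusted p = 1.9e-05), -0.55 ± 0.08 (adjusted p = 1.32e-05) and, in MOLM-13, 0.24 ± 0.08 (adjusted p = 0.0195), where the adjusted p was 0.07 without treated replicate 3 and 0.109 without vehicle replicate 1. The catalytic subunits of polymerase alpha and delta, POLA1 and POLD1, changed by -1.03 ± 0.13 and -0.66 ± 0.05 in MV4-11 and by -0.65 ± 0.13 and -0.15 ± 0.05 in MOLM-13, all 4 passing the test. The accessory subunits POLA2, POLD2 and POLD3 changed by -0.52 ± 0.11, -0.19 ± 0.08 and -0.60 ± 0.07 in MV4-11, which passed, and POLD3 by 0.04 ± 0.07 (adjusted p = 0.649) in MOLM-13.

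Single-strand binding and Okazaki fragment joining genes fell in 3 of 5 cases on day 4, 4 of 5 on day 6 and 3 of 5 in MOLM-13. RPA3 is the smallest subunit of replication protein A, which coats unwound DNA. RPA3 read 11.99, 12.08 and 12.21 in vehicle and 11.97, 12.06 and 11.99 treated on day 2, and 11.87, 11.86 and 11.83 against 11.12, 11.28 and 11.10 on day 4. RPA3 on day 6 read 12.08, 12.13 and 12.06 in vehicle and 10.74, 10.67 and 10.82 treated MV4-11, and 12.04, 12.09 and 12.02 against 11.49, 11.24 and 11.43 in MOLM-13. All treated arrays were below vehicle from day 4 on. RPA3 changed by -0.69 ± 0.07 (adjusted p = 1e-07), -1.34 ± 0.07 (adjusted p = 3.65e-12) and -0.66 ± 0.07 (adjusted p = 8.13e-08). LIG1 seals the joined fragments. LIG1 read 11.02, 11.11 and 10.92 in vehicle and 10.92, 10.77 and 10.87 treated on day 2, and 10.73, 10.73 and 10.70 against 10.20, 10.35 and 10.43 on day 4. LIG1 on day 6 read 10.75, 10.65 and 10.86 in vehicle and 9.99, 9.84 and 10.01 treated MV4-11, and 10.75, 10.74 and 10.82 against 10.78, 10.76 and 10.90 in MOLM-13. LIG1 was low in treated MV4-11 and overlapped vehicle in MOLM-13, with changes of -0.80 ± 0.07 (adjusted p = 1.16e-08) and 0.04 ± 0.07 (adjusted p = 0.612). RPA1, the largest subunit of replication protein A, changed by 0.03 ± 0.05 (adjusted p = 0.63) on day 4, -0.37 ± 0.05 (adjusted p = 2.61e-06) on day 6 and -0.32 ± 0.05 (adjusted p = 1.49e-05) in MOLM-13. FEN1, the nuclease that trims the flap before ligation, changed by -0.74 ± 0.07 (adjusted p = 1.05e-08) and 0.14 ± 0.07 (adjusted p = 0.0698).

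RPA2, the middle subunit of replication protein A (GRCh38.p14 chr1:27891524-27914797), was singled out after its values were seen. RPA2 read 10.94, 10.97 and 10.91 in vehicle and 11.01, 11.01 and 11.05 treated on day 2, and 10.64, 10.71 and 10.67 against 10.77, 10.60 and 10.85 on day 4. RPA2 on day 6 read 11.07, 11.10 and 11.03 in vehicle and 11.00, 10.98 and 10.97 treated MV4-11, and 10.43, 10.43 and 10.05 against 8.85, 8.53 and 8.99 in MOLM-13. In MV4-11 the groups differed in the mean by at most 0.08, above vehicle on day 2 and below it on day 6 without overlap, and in MOLM-13 the treated arrays lay far below vehicle. RPA2 changed by -0.08 ± 0.10 (adjusted p = 0.484) in MV4-11 on day 6 and by -1.51 ± 0.10 (adjusted p = 1.94e-10) in MOLM-13, where it was 2.85-fold lower. On day 4 its change was 0.07 ± 0.10 (adjusted p = 0.629), and -0.26 (adjusted p = 0.015) when the vehicle arrays of days 2 and 6 took the place of those of day 4.

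The nucleotide supply genes fell in 3 of 5 cases on day 4, 5 of 5 on day 6 and 2 of 5 in MOLM-13. TK1, the S phase thymidine kinase, and TYMS, which makes thymidylate from deoxyuridylate, had the largest day 6 changes. TK1 read 10.65, 10.68 and 10.78 in vehicle and 10.87, 10.83 and 10.85 treated on day 2, and 10.21, 10.22 and 10.18 against 10.00, 10.01 and 10.05 on day 4. TK1 on day 6 read 10.72, 10.78 and 10.83 in vehicle and 9.91, 9.78 and 9.26 treated MV4-11, and 10.00, 10.23 and 10.01 against 8.61, 8.44 and 8.86 in MOLM-13. Treated TK1 arrays were above vehicle on day 2, just below it on day 4 and far below it on day 6 in both lines. TYMS read 13.81, 13.84 and 13.96 in vehicle and 13.90, 13.97 and 13.89 treated on day 2, and 13.69, 13.66 and 13.63 against 13.55, 13.42 and 13.42 on day 4. TYMS on day 6 read 13.84, 13.94 and 13.84 in vehicle and 13.17, 13.07 and 12.86 treated MV4-11, and 14.07, 14.04 and 13.98 against 13.45, 12.94 and 13.27 in MOLM-13. TK1 changed by 0.15 ± 0.12 (adjusted p = 0.525), -0.18 ± 0.12 (adjusted p = 0.233), -1.13 ± 0.12 (adjusted p = 1.37e-07) and, in MOLM-13, -1.44 ± 0.12 (adjusted p = 4.62e-09). A TK1 probe set of similar brightness changed by -0.26 on day 4, -0.71 on day 6 and -0.31 in MOLM-13. It passed in each, with limma p adjusted over all probe sets of 0.0109, 2.1e-07 and 0.00138. TYMS changed by -0.20 ± 0.10 (adjusted p = 0.094), -0.84 ± 0.10 (adjusted p = 2.95e-07) and -0.81 ± 0.10 (adjusted p = 4.18e-07), and its treated arrays were below vehicle on day 4, on day 6 and in MOLM-13. Both day 4 values passed in a fit of only the day 4 arrays, with adjusted p of 0.00865 for TK1 and 0.0202 for TYMS.

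Ribonucleotide reductase, which makes deoxynucleotides, has the large subunit RRM1 and the S phase subunit RRM2. RRM2 read 13.88, 14.02 and 14.0 in vehicle against 13.34, 13.26 and 13.34 treated on day 4, and 13.96, 13.91 and 13.90 against 13.20, 13.16 and 13.23 on day 6, without overlap on either day. RRM2 changed by -0.65 ± 0.05 (adjusted p = 2.43e-09), -0.73 ± 0.05 (adjusted p = 2.85e-10) and -0.10 ± 0.05 (adjusted p = 0.0742), and RRM1 by -0.35 ± 0.09, -0.43 ± 0.09 and, in MOLM-13, -0.02 ± 0.09 (adjusted p = 0.878). DUT, which clears dUTP, changed by -0.15 ± 0.05 (adjusted p = 0.011) in MV4-11 and -0.02 ± 0.05 (adjusted p = 0.698) in MOLM-13; a dimmer probe set of DUT changed by -0.88 (adjusted p = 6.21e-08) and -0.57 (adjusted p = 1.16e-05), with p adjusted over all probe sets. In MOLM-13 RRM2 passed the threshold with no filter (adjusted p = 0.041), under a variance prior with trend and robust estimation (adjusted p = 0.0371) and as the mean of its probe sets, at -0.20 (adjusted p = 0.00307); the count of 2 of 5 above leaves it out.

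Of 4 regulators of S phase entry, 1 fell on day 4, 2 on day 6 and none in MOLM-13, where 2 rose and the median was 0.38. CCNE1 and CCNE2 encode cyclin E, the partner of CDK2 at the start of S phase. CCNE1 read 10.18, 10.32 and 10.23 in vehicle and 10.23, 10.20 and 10.23 treated on day 2, and 9.87, 9.99 and 9.75 against 9.61, 9.77 and 9.71 on day 4. CCNE1 on day 6 read 9.92, 9.99 and 10.02 in vehicle and 9.66, 9.39 and 9.69 treated MV4-11, and 9.88, 9.86 and 10.01 against 10.27, 10.37 and 10.25 in MOLM-13. CCNE1 was below vehicle in treated MV4-11 on day 6 and above it in MOLM-13 without overlap. CCNE2 read 10.36, 10.13 and 10.43 in vehicle and 10.30, 10.43 and 10.37 treated on day 2, and 9.98, 10.28 and 10.28 against 9.96, 9.80 and 9.86 on day 4. CCNE2 on day 6 read 10.42, 10.25 and 10.38 in vehicle and 9.72, 9.66 and 9.63 treated MV4-11, and 11.27, 10.99 and 10.80 against 11.05, 11.10 and 11.10 in MOLM-13. CCNE2 was below vehicle on days 4 and 6 and overlapped in MOLM-13. CCNE1 changed by -0.39 ± 0.08 (adjusted p = 0.000175) in MV4-11 and 0.38 ± 0.08 (adjusted p = 0.000237) in MOLM-13. CCNE2 changed by -0.31 ± 0.10 (adjusted p = 0.018) on day 4, -0.68 ± 0.10 (adjusted p = 1.04e-05) on day 6 and 0.06 ± 0.10 (adjusted p = 0.611) in MOLM-13. The day 4 fall of CCNE2 lost the call without treated replicate 2 (adjusted p = 0.0692) and without vehicle replicate 2 or 3 (adjusted p = 0.079 for both), and was -0.09 (adjusted p = 0.72) as the mean of its probe sets.

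E2F1 and E2F2 are transcription factors that switch on genes of S phase. E2F2 read 8.42, 8.67 and 8.47 in vehicle and 8.56, 8.53 and 8.43 treated on day 2, and 8.22, 8.38 and 7.96 against 7.86, 7.95 and 8.08 on day 4. E2F2 on day 6 read 8.14, 8.14 and 8.33 in vehicle and 8.08, 7.92 and 8.34 treated MV4-11, and 9.03, 9.14 and 9.22 against 9.59, 9.72 and 9.48 in MOLM-13. E2F2 overlapped on every day in MV4-11 and was above vehicle in all 3 treated MOLM-13 arrays. E2F2 changed by -0.09 ± 0.11 (adjusted p = 0.515) in MV4-11 and 0.46 ± 0.11 (adjusted p = 0.00121) in MOLM-13. The MOLM-13 change was 0.13 (adjusted p = 0.118) as the mean of all its probe sets, of which only the brightest passed the filter on low values. E2F1 on day 6 in MV4-11 read 7.50, 7.10 and 7.42 in vehicle and 6.79, 6.75 and 8.01 treated, with treated replicate 3, the array with the wide 3' to 5' difference, above all the others. E2F1 changed by -0.16 ± 0.24 (adjusted p = 0.594) with that array and by -0.57 without it (adjusted p = 0.00698), and by 0.38 ± 0.24 (adjusted p = 0.171) in MOLM-13. Its dimmer probe set fell by 0.52 on the log2 scale on day 4 (adjusted p = 0.0238) and by 0.51 on day 6 (adjusted p = 0.016) in MV4-11, with p adjusted over all probe sets.

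Chromatin copying genes fell in 2 of 3 cases on day 4, 3 of 3 on day 6 and 2 of 3 in MOLM-13. CHAF1A and CHAF1B are subunits of the chromatin assembly factor that places histones on new DNA. CHAF1A read 10.74, 10.80 and 10.75 in vehicle and 10.72, 10.67 and 10.67 treated on day 2, and 10.61, 10.55 and 10.49 against 10.03, 10.25 and 10.22 on day 4. CHAF1A on day 6 read 10.59, 10.81 and 10.72 in vehicle and 10.16, 9.97 and 10.05 treated MV4-11, and 10.67, 10.82 and 10.76 against 10.71, 10.73 and 10.71 in MOLM-13. CHAF1A was below vehicle on all 3 days in MV4-11 and overlapped in MOLM-13. CHAF1B read 7.58, 7.29 and 7.67 in vehicle and 7.50, 7.57 and 7.50 treated on day 2, and 7.18, 7.20 and 7.09 against 7.05, 6.80 and 6.74 on day 4. CHAF1B on day 6 read 7.64, 7.69 and 7.49 in vehicle and 6.61, 6.40 and 6.70 treated MV4-11, and 7.21, 7.33 and 7.18 against 6.62, 6.14 and 6.68 in MOLM-13. CHAF1B was below vehicle on days 4 and 6 and in MOLM-13. CHAF1A changed by -0.39 ± 0.07 (adjusted p = 8.87e-05), -0.65 ± 0.07 (adjusted p = 9.79e-08) and -0.03 ± 0.07 (adjusted p = 0.705), and CHAF1B by -0.29 ± 0.12 (adjusted p = 0.0591), -1.03 ± 0.12 (adjusted p = 5.58e-07) and -0.76 ± 0.12 (adjusted p = 2.13e-05). In MOLM-13 the other probe sets of CHAF1A changed by -0.36 (adjusted p = 8.69e-05) and 0.29 (adjusted p = 0.00163), with p adjusted over all probe sets. The day 4 value of CHAF1B passed without treated replicate 1, at -0.39 (adjusted p = 0.0253), and in a fit of only the day 4 arrays (adjusted p = 0.0427). UHRF1, which reads hemimethylated DNA for the maintenance methyltransferase, changed by -0.50 ± 0.06 (adjusted p = 1.46e-06) and -0.15 ± 0.06 (adjusted p = 0.0423).

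The growth of the changes with time was tested as differences between the effects of successive days, each effect measured against its own vehicle; both tests use the day 4 arrays. From day 2 to day 4 the effect became lower for 20 members and higher for none, against 7.77% and 7.22% of all genes. The 5 largest of these were CDC6 (-0.90 ± 0.11 (adjusted p = 1.22e-05)), MCM10 (-0.65 ± 0.16), RPA3 (-0.60 ± 0.10), RRM2 (-0.55 ± 0.07) and CDC45 (-0.52 ± 0.12). That count was 12 without treated replicate 1 of day 2, and 13 without vehicle replicate 1 of day 2 or treated replicate 2 of day 4. From day 4 to day 6 the effect became lower for 29 members and higher for none, against 11.9% and 13.9% of all genes (25.7% in either direction). MCM10 (-1.02 ± 0.16 (adjusted p = 0.00018)), TK1 (-0.95 ± 0.17), POLE2 (-0.92 ± 0.11), PRIM1 (-0.90 ± 0.18) and GINS3 (-0.90 ± 0.13) had the largest differences among those that passed in the second step. By its dimmer probe sets MCM10 changed by -0.68 and -0.71 on day 4 and by -1.13 and -0.96 on day 6. By theirs, TK1 went from -0.26 to -0.71 and GINS3 from -0.30 to -0.84. The second step was not tested for these probe sets. By role, 8 of 11 licensing genes and 1 of 6 clamp and loader genes passed in the first step, and 7 of 11 and 5 of 6 in the second.

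The vehicle arrays of day 4 bear on both steps. Against vehicle of days 2 and 6, 30 members were lower and none higher in vehicle of day 4, with a median of -0.23, while 15.2% of all genes were lower and 13.4% higher (28.6% in either direction); the count was 17 without vehicle replicate 3 of day 4. TK1 (-0.54 ± 0.10 (adjusted p = 0.000828)), POLE2 (-0.53 ± 0.07) and GINS3 (-0.50 ± 0.08) had the largest differences. Set against the vehicle arrays of days 2 and 6 instead, treated cells of day 4 had 48 members lower and none higher, against 28.0% and 29.1% of all genes, with a median of -0.59; the 2 that did not pass were GINS4 and E2F1. TK1 then changed by -0.72, PRIM1 by -0.60, CHAF1B by -0.70 and RFC2 by -0.61, each with an adjusted p of at most 0.000152. Between vehicle of day 6 and day 2 limma called no member, while 0.337% of all genes were lower and 0.784% higher (1.12% in either direction). An unadjusted p under 0.05 was reached there by 6 of the 50 members and by 1617 of all 10971 genes. The 3' to 5' difference of the day 4 vehicle arrays was 0.70 to 0.82, above the 0.57 to 0.68 of the vehicle arrays of days 2 and 6; with it as a covariate 34 members were lower, against 17.9% of all genes, with a median of -0.21.

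The lines differed in the size of the response on day 6. The effect in MOLM-13 was higher than in MV4-11, that is less negative or positive, for 22 members and lower for 4, 26 in all, against 19.4% and 32.7% of all genes (52.0% in either direction). ORC6 (0.90 ± 0.14 (adjusted p = 3.32e-05)), FEN1 (0.88 ± 0.09), LIG1 (0.85 ± 0.10), POLE (0.79 ± 0.12) and CCNE1 (0.77 ± 0.11) had the largest positive differences among those that passed. Of these, FEN1 read 12.84, 12.88 and 12.94 in vehicle and 12.14, 12.04 and 12.26 treated MV4-11, and 12.87, 12.96 and 12.96 against 13.02, 13.13 and 13.06 in MOLM-13, low in the first line and slightly high in the other. Its dimmer probe set fell in both lines, at -1.57 and -1.27. RPA2 (-1.43 ± 0.14 (adjusted p = 1.14e-07)), RFC1 (-0.47 ± 0.13 (adjusted p = 0.00378)), RFC2 (-0.41 ± 0.14 (adjusted p = 0.0211)) and RFC5 (-0.37 ± 0.11 (adjusted p = 0.0112)) had lower effects in MOLM-13 than in MV4-11.

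RFC1 on day 6 read 9.66, 9.65 and 9.54 in vehicle and 9.23, 9.06 and 8.86 in treated MV4-11, and 9.79, 9.82 and 9.79 against 8.94, 8.51 and 8.84 in MOLM-13. RFC2 on day 6 read 10.39, 10.36 and 10.26 in vehicle and 9.81, 9.74 and 9.30 in treated MV4-11, and 9.97, 9.95 and 9.83 against 8.90, 8.65 and 8.82 in MOLM-13. By these probe sets both loader genes separated in both lines; the other probe set of RFC1, of similar brightness, changed by -0.06 (adjusted p = 0.581) in MV4-11 and -1.25 (adjusted p = 2.66e-10) in MOLM-13. When every array was set to a common median, which moves the median gene of this contrast from -0.10 to 0.06, 36 members were higher and 2 lower. Of all genes, 29.2% were then higher and 23.7% lower. RFC2 and RFC5 were then no longer called, with adjusted p of 0.132 and 0.118. Nor were they as the mean of probe sets, at -0.26 (adjusted p = 0.105) and -0.14 (adjusted p = 0.451), or with the 3' to 5' difference as a covariate, at -0.13 (adjusted p = 0.315) and -0.17 (adjusted p = 0.151). The RFC2 difference also missed the threshold when any 1 of 4 arrays was left out (adjusted p of 0.0521 to 0.0693): treated MV4-11 replicate 1 or 2, vehicle MV4-11 replicate 3, or treated MOLM-13 replicate 2. Between the vehicle groups of day 6, 15 members were higher and 12 lower in MOLM-13, against 30.7% and 33.0% of all genes (63.8% in either direction), led by E2F2 (0.93 ± 0.11), PRIM2 (0.89 ± 0.11) and GINS1 (0.89 ± 0.05) above and PRIM1 (-0.91 ± 0.13), RPA2 (-0.76 ± 0.10) and TK1 (-0.70 ± 0.12) below.

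**Figure D4:**
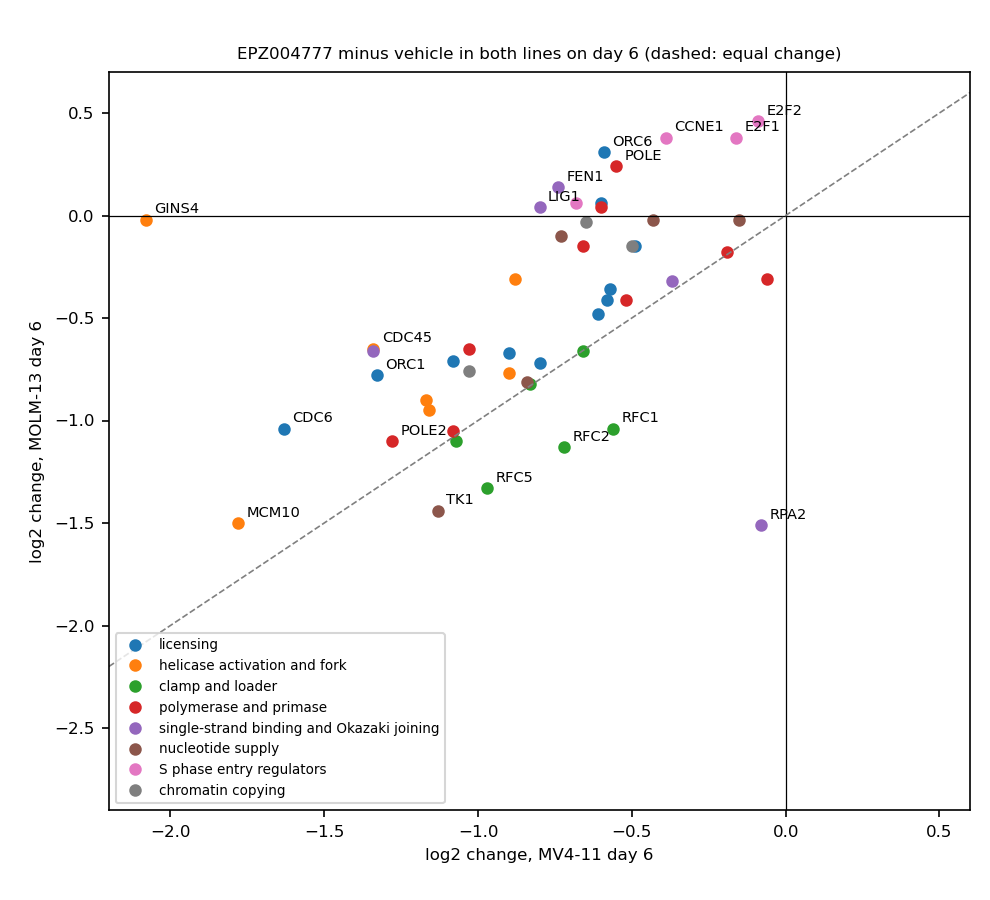
Each point is 1 of the 50 members, coloured by role, with its log2 change on day 6 in MV4-11 (horizontal axis) and in MOLM-13 (vertical axis); the dashed line marks equal change. RPA2 lies far below the line, at -0.08 and -1.51, and ORC6, POLE, FEN1 and CCNE1 lie above it with changes of 0.14 to 0.38 in MOLM-13.

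Different probe sets of a member gave different sizes of change, most of all in MOLM-13. Of 95 probe sets of the members, 87 passed the filter, and 26 members had more than 1. In MOLM-13 the probe sets of a gene differed in their change by a median of 0.78, by over 1 for 12 genes and by at most 3.04. In MV4-11 the median was 0.09 on day 2, 0.15 on day 4 and 0.58 on day 6, when 6 genes differed by over 1. In RRM1, RFC5, MCM4 and CCNE2 a dimmer probe set read lowest in treated replicate 3, the array with the wide 3' to 5' difference. RRM1 read 9.16, 9.08 and 7.32 treated, and RFC5 7.60, 7.43 and 6.04. MCM4 read 8.59, 8.76 and 6.29, and CCNE2 6.13, 5.67 and 4.16. For RFC3 and TYMS the span took in a dim probe set, averaging 2.26 and 4.02 in vehicle of day 6. Splits without that array were not tested. RRM1 gave the widest split: its brighter probe set read 13.25, 13.30 and 13.33 in vehicle and 13.20, 13.33 and 13.30 in treated MOLM-13, and its other probe set 9.26, 9.44 and 9.13 against 6.46, 5.92 and 6.29. The first changed by -0.02 with overlapping arrays, and the second fell by 3.06 on the log2 scale (adjusted p = 7e-08).

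TYMS fell by both of its bright probe sets, 1 reading 14.07, 14.04 and 13.98 in vehicle and 13.45, 12.94 and 13.27 treated, the other 11.38, 11.70 and 11.45 against 9.01, 8.34 and 9.04, changes of -0.81 and -2.71. FEN1 and CDT1 fell in MOLM-13 only by their dimmer probe sets. That of FEN1 read 10.46, 10.60 and 10.54 in vehicle against 9.47, 8.88 and 9.46 treated, a change of -1.27 (adjusted p = 6.22e-07), and that of CDT1 9.36, 9.42 and 9.41 against 8.08, 7.77 and 8.03, a change of -1.44 (adjusted p = 3.15e-09). Counted over all 87 probe sets, with p adjusted over 25334 probe sets, none fell on day 2, 51 fell on day 4 and 76 on day 6 in MV4-11, against 3.51%, 18.1% and 30.4% of all probe sets, and 60 fell and 6 rose in MOLM-13, against 34.8% and 28.0%. Where on the transcripts these probe sets lie is not analysed here. With all probe sets of each gene averaged, those below the filter included, 40 members fell and 3 rose in MOLM-13, against 38.7% and 26.4% of all genes. CCNE2 and FEN1 then changed by -0.56 each.

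**Figure D5:**
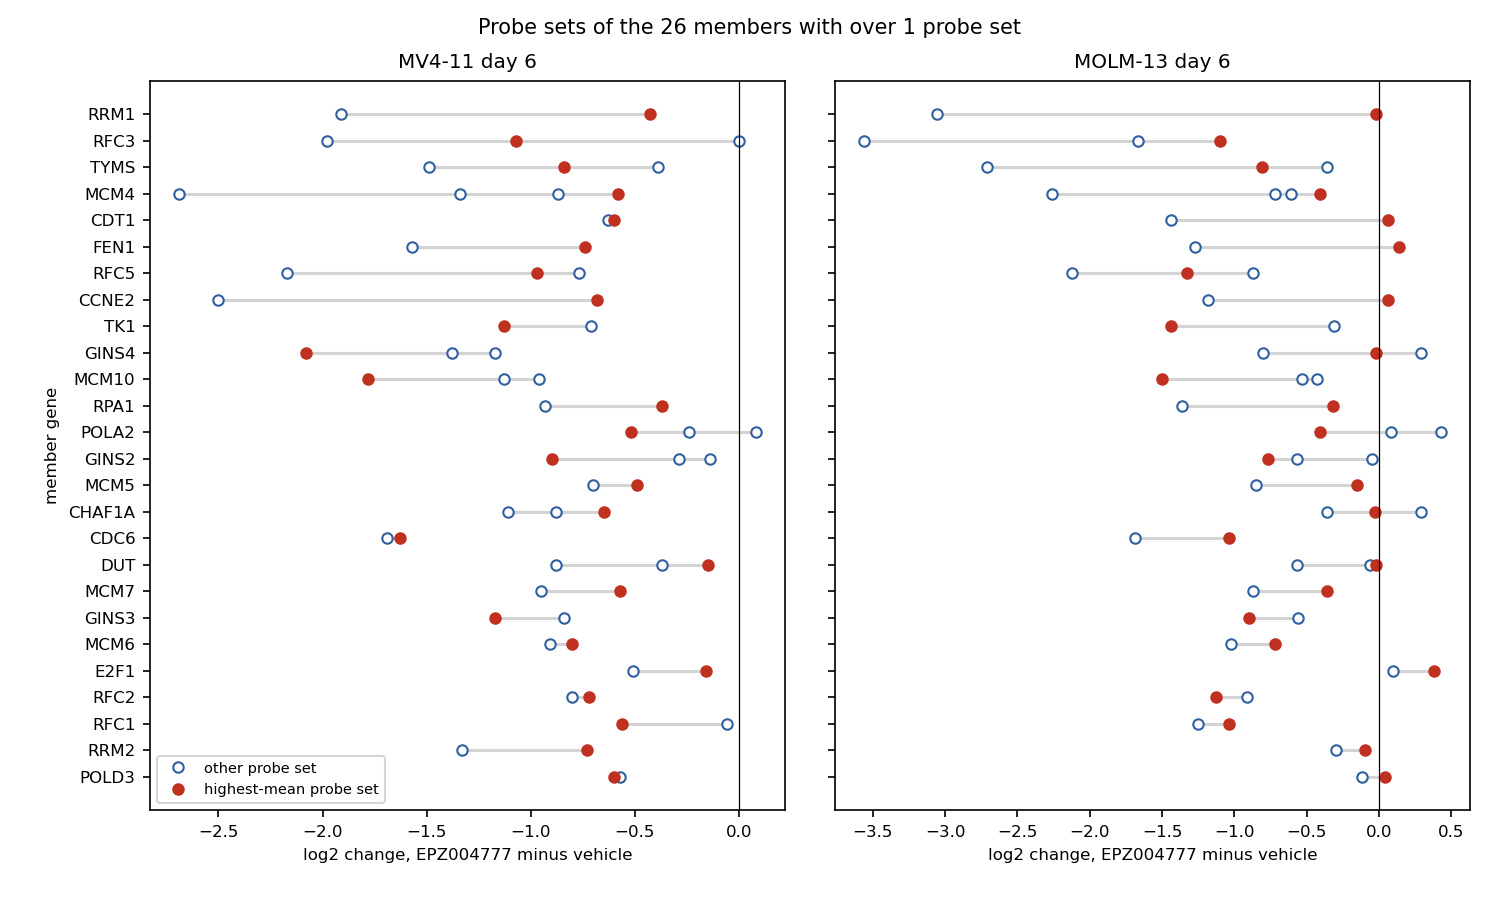
For the 26 members with more than 1 probe set, each point is the log2 change of 1 probe set on day 6 (horizontal axis), filled for the probe set with the highest mean and open for the others, in MV4-11 (left) and MOLM-13 (right). In MOLM-13 the points of RRM1 are 3.04 apart, and 12 genes span more than 1.

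The 3' to 5' difference did not overlap between the treated and vehicle groups of either line, so the model can separate the 2 only through the spread within groups. With it as a covariate, 28 members fell and 2 rose in MOLM-13, against 22.7% and 16.9% of all genes, of which 27 falls were shared with the fit without it, and the median was -0.38. The rises of CCNE1, POLE, E2F2 and ORC6 did not pass in that fit, at 0.18, 0.14, 0.09 and -0.01, and the 2 that rose were POLD3 and GINS4, the latter with the single low array in MV4-11. MCM2, MCM3 and POLA1 no longer passed either, at -0.25, -0.12 and -0.10. In MV4-11 on day 6 the same fit gave 46 falls, against 24.6% of all genes, and a median of -0.67.

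Promoters were searched because the members fell together, and the 6 stretches below show how the element named for E2F is placed. The search covered 250 bases before to 50 after the start of each gene in RefSeq (GRCh38.p14), where 43 of the 50 members had an entry. The E2F element was taken as TTTGGCGC, TTTGCCGC, TTTCGCGC or TTTCCCGC on either strand, and 20 of the 43 member promoters (46.5%) held at least 1, against 703 of 15842 promoters in the table (4.44%) and 5.74% of those of genes tested. MCM6 (chr2:135876514-135876603, minus strand) held 2 sites that read on both strands, PCNA (chr20:5126623-5126712, minus strand), RFC3 (chr13:33818059-33818148, plus strand) and CDT1 (chr16:88803699-88803788, plus strand) held 1 each, E2F1 (chr20:33686386-33686475, minus strand) held 2, and MCM10 (chr10:13161468-13161557, plus strand), among the members with the largest falls, held none. Each line runs 5′ to 3′ along the gene, with matches in capitals.
MCM6: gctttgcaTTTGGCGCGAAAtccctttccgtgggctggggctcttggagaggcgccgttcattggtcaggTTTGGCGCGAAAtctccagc
PCNA: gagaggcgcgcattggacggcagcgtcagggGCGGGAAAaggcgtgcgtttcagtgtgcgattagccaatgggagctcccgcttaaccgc
RFC3: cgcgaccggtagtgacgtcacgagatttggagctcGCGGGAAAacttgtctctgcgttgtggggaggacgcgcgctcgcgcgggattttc
CDT1: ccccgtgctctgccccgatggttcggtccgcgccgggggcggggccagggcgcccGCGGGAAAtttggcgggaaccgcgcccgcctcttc
E2F1: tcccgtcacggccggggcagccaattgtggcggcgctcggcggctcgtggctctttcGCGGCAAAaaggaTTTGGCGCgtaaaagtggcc
MCM10: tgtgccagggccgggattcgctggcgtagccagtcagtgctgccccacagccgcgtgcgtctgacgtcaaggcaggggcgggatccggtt

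The 27 matches merged into 24 sites, of which 18 began within 70 bases before the start or after it. Members with a match changed by a median of -0.80 on day 6 in MV4-11, with 18 of 20 falling, and those without by -0.73, with 22 of 23 falling; in MOLM-13 the medians were -0.57 and -0.65. The CCAAT element was in 24 of the 43 (55.8%, against 36.4% of all promoters) and the GC box GGGCGG in 31 (72.1% against 58.5%, and 70.6% of promoters of genes tested), both on either strand. The TTTGAA element found in many mitotic genes, on either strand, was in 1 (2.33% against 12.1%). A match is a description of the letters and not a bound site; these arrays measured no binding.

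Other genes of replication and nucleotide synthesis, 75 in a wider list of which 73 were tested, moved in both directions, with a median of -0.47 in MV4-11 on day 6. In MV4-11 on day 2, 4 fell and 4 rose (5.48% each), against 3.68% and 8.82% of all genes. On day 4, 34 fell (46.6%) and 8 rose (11.0%), against 21.0% and 25.2%, and on day 6, 51 fell (69.9%) and 7 rose (9.59%), against 28.4% and 33.6%. In MOLM-13, 46 fell (63.0%) and 11 rose (15.1%), against 36.5% and 29.3%. The largest falls of day 6 included DNA2, a nuclease and helicase (-1.20 ± 0.15 (adjusted p = 1.08e-06)), E2F7, a repressive E2F (-1.19 ± 0.10 (adjusted p = 3.99e-09)), DBF4, the activator of the CDC7 kinase (-1.14 ± 0.08 (adjusted p = 5.71e-10)), CDK2, the kinase partner of cyclin E (-1.05 ± 0.08 (adjusted p = 5e-10)), CCNA2, cyclin A (-1.03 ± 0.07 (adjusted p = 2.54e-10)), and TICRR, which recruits CDC45 (-1.0 ± 0.12 (adjusted p = 5.74e-07)). CCNA2 was also among the 4 that fell on day 2, at -0.25 ± 0.07 (adjusted p = 0.0254).

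The rises were led by SAMHD1, which breaks down deoxynucleotides, at 0.94 ± 0.07 (adjusted p = 2.09e-09) in MV4-11 on day 6 and 2.13 ± 0.07 (adjusted p = 9.07e-15) in MOLM-13. TK2, the mitochondrial thymidine kinase, rose on each day in MV4-11, by 0.29 ± 0.07 (adjusted p = 0.00957), 0.68 ± 0.07 (adjusted p = 1.38e-07) and 0.89 ± 0.07 (adjusted p = 1.78e-09), and by 0.60 ± 0.07 (adjusted p = 3.12e-07) in MOLM-13. RRM2B, the reductase subunit used outside S phase, rose by 0.50 ± 0.10 (adjusted p = 0.000246) and 0.30 ± 0.10 (adjusted p = 0.0141). POLD4, a small subunit of polymerase delta, CTPS2, a CTP synthase, and RBL2, a relative of the retinoblastoma protein, rose in MV4-11 on day 6 by 0.93, 0.85 and 0.45, while CTPS2 fell in MOLM-13, at -0.56 ± 0.07 (adjusted p = 1.8e-06).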

How the data were processed

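Expression was measured in 24 samples on arrays with 54675 probe sets. The deposited intensity values, 1 per probe set and array on a linear scale, were credited to GCRMA per the submitters' processing notes, with a version not given in the sources used here; that method adjusts background, normalizes by quantiles and summarizes probe sets, and all arrays share 1 lowest value. Log2 values had been assumed in the design, so log2 was taken with a pseudocount of 0. Of the probe sets, 41091 had 1 gene, 1801 several and 11721 none, and 62 were controls; 41037 matched RefSeq (GRCh38.p14). Genes with log2 of at least 4 in at least 3 arrays were kept, which left 10971. A model with a mean for each of the 8 groups was fitted by limma (version 3.58.1, under R 4.3.3, with lmFit and eBayes). Tables and plots were made in Python 3.11.15 (pandas 2.3.3, numpy 2.4.6, matplotlib 3.10.9). An exact two-sided test of 3 against 3 arrays cannot go below p = 0.1, so limma's p-values alone are given.

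The members and lists were chosen with earlier results of these data known. Values in every array are given for the 2 members with the largest day 6 change in MV4-11 in each role and for members that rose. Differences name up to 5 members each way, and the wider list its 6 largest falls and rises. Values of RPA2, E2F1, RRM1, RRM2, FEN1, RFC1 and RFC2, and of probe sets, were added after they were seen. In simulated data with 100 genes changed by 0.5 and 100 by 1, limma recovered 64 and 97 on day 2, 63 and 97 on day 4, 63 and 95 on day 6 and 59 and 98 in MOLM-13, with 7, 7, 9 and 14 false calls. Same-numbered replicates did not deviate together (correlations of -0.26 to 0.10), so the numbers were not used as pairs. Alternatives changed the filter, the arrays fitted, the threshold, the scaling, the probe set rule, the vehicle of day 4, the block and each array in turn. The mean of probe sets took in every probe set of a gene, those below the filter included. The 3' to 5' covariate and the count of all probe sets were chosen after seeing the data.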

Additional observations from a re-analysis of the deposited data

Results flagged for a closer look

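Differences between days or lines that passed limma's test of the difference are gathered here. The effect of EPZ004777 in MV4-11 differed between day 4 and day 2 for 20 members, all lower on day 4, against 7.77% of all genes, with CDC6 at -0.90, MCM10 at -0.65, RPA3 at -0.60, RRM2 at -0.55 and CDC45 at -0.52. Between day 6 and day 4 it differed for 29 members, all lower on day 6, against 11.9% of all genes, with MCM10 at -1.02, TK1 at -0.95, POLE2 at -0.92, PRIM1 at -0.90 and GINS3 at -0.90. The day 4 arrays enter both, and the vehicle arrays of day 4 had 30 members below the other days. The dimmer probe sets of MCM10, TK1 and GINS3 gave smaller changes on day 6, and their differences between days were not tested.

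Between MOLM-13 and MV4-11 on day 6 the effect differed for 26 of 50 members, a share like the 52.0% of all genes. By direction, it was higher in MOLM-13 for 22 members (44.0%) and lower for 4 (8.0%), against 19.4% and 32.7% of all genes. It was higher in MOLM-13 for ORC6 by 0.90, FEN1 by 0.88, LIG1 by 0.85, POLE by 0.79 and CCNE1 by 0.77. It was lower for RPA2 at -1.43, RFC1 at -0.47, RFC2 at -0.41 and RFC5 at -0.37. By its dimmer probe set FEN1 fell in both lines, at -1.57 in MV4-11 and -1.27 in MOLM-13, and that difference was not tested. The 3' to 5' difference of the treated MOLM-13 arrays was 2.10 to 2.84; with it as a covariate the effect was higher in MOLM-13 for 27 members and lower for 2, against 19.1% and 30.6% of all genes, and RFC2 at -0.13 (adjusted p = 0.315 by limma) and RFC5 at -0.17 (adjusted p = 0.151) were no longer called.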

How the results depend on the processing

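With a replicate block for the replicate number, 31 members fell on day 4, 46 on day 6 and 34 in MOLM-13, and none on day 2. Of all genes 20.7%, 28.1%, 36.2% and 3.43% fell in that fit. Each of the 24 arrays was left out in turn: the falls numbered 0 on day 2, 29 to 33 on day 4, 44 to 47 on day 6 and 31 to 34 in MOLM-13, and the rises in MOLM-13 3 to 4. The members with differing effects then numbered 12 to 20 from day 2 to 4, 25 to 30 from day 4 to 6 and 24 to 31 between lines. Vehicle differences numbered 17 to 29 for day 4, 0 to 1 between days 6 and 2, and 22 to 25 between lines. The shares of all genes in the fits with an array left out are not given here. In a fit of only its arrays day 2 had 3 falls, against 6.12% of all genes. With the 3' to 5' difference as a covariate day 2 had 1 fall, against 5.26%, and MOLM-13 had 2 rises, against 16.9%. With a minimum of 2-fold, 1 fell on day 4, 15 on day 6 and 10 in MOLM-13, against 2.78%, 3.85% and 7.22% of all genes. In MOLM-13 0 rose, against 5.54%. In the differences from day 2 to 4, from day 4 to 6 and between lines 0, 1 and 1 members passed. Of all genes 2.01%, 0.738% and 9.11% were lower there and 1.40%, 2.64% and 4.28% higher. In vehicle of day 4 0 passed, against 0.0182% lower and 1.47% higher. Between vehicle lines 0 passed, against 9.0% lower and 8.0% higher. At an adjusted p under 0.01, 2 rose in MOLM-13, 10 differed from day 2 to 4 and 19 in vehicle of day 4. The values of single members that changed sign, with a call in the main fit or the alternative, were CCNE2 (-0.56) and FEN1 (-0.56) in MOLM-13 as the mean of probe sets, GINS4 (3.46) and ORC6 (-0.01) in MOLM-13 with the covariate, and RPA2 on day 4 (-0.26) against vehicle of days 2 and 6. A common median gave 36 members higher and 2 lower between lines, against 29.2% and 23.7% of all genes. It gave 30 falls and 5 rises in MOLM-13, against 31.4% and 35.1% of all genes. For values of single members, 2191 alternatives kept their side of the threshold, 99 lost the call, 40 gained it and 5 changed sign with a call in either fit. A change of sign between fits that both lacked a call was counted among the 2191. The number of arrays, 3 a group, limits precision, and the causes of these shifts were not tested. The day 2 and day 6 vehicle arrays, the covariate and the count over all probe sets are described in the report.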

Other observations

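Genes of mitosis were also followed, as a list of 30. In MV4-11, 1 fell on day 2 (SGO1, a guardian of sister chromatid cohesion, at -0.23 ± 0.08 (adjusted p = 0.0486) by limma), 26 on day 4 with a median of -0.44 and 30 on day 6 with a median of -1.04, against 3.68%, 21.0% and 28.4% of all genes. In MOLM-13, 17 fell and 2 rose, against 36.5% and 29.3% of all genes, with a median of -0.22. TTK, a spindle checkpoint kinase, and ESPL1, the separase that cuts cohesin, were the 2 that rose there, at 0.19 ± 0.08 (adjusted p = 0.0477) and 0.21 ± 0.06 (adjusted p = 0.00395). AURKA, a spindle pole kinase, changed by -0.75 ± 0.08 in MV4-11 and -0.01 ± 0.08 in MOLM-13, and BIRC5, survivin, by -0.77 ± 0.06 and -0.08 ± 0.06. The effect was higher in MOLM-13 than in MV4-11 for 23 of the 30, with a median difference of 0.75, and lower for none, against 19.4% and 32.7% of all genes.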
